A study of Mus musculus with 4 samples.

Results

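miR-455-3p, miR-455-5p, miR-140-3p and miR-140-5p are the 4 mature miRNAs cut from the hairpins of miR-455 and miR-140. They were picked as the rows of the count table named after these hairpins, which is 4 of 942 mature miRNAs. The hairpins were chosen by the reads of miR-455-3p in 1 sibling pair, where it was much lower in the AD mouse than in the WT mouse, so the values of that pair are given below as a description. Small RNA of the brain cortex of 4 B6C3 mice aged 9 months was sequenced. The 2 WT mice (WT1 and WT2) carry no transgene, and the 2 AD mice (APP3 and APP4) are APPswe/PS1deltaE9 mice. Their transgenes are expressed in neurons and code for a partly humanized APP with the Swedish mutation and for human presenilin 1 that lacks exon 9. WT1 and APP4 were siblings (group 1), and so were WT2 and APP3 (group 2). Each library is 1 mouse, so a sibling pair compares 1 mouse with 1 mouse, and there are 2 such pairs.

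A miRNA hairpin is cut by Dicer into a short duplex, and the strand that stays in Argonaute, the guide, then represses mRNAs that pair with its seed, while the other strand is mostly lost. The 5p and 3p arms are the strands from both sides of the loop, and the balance between them differs between hairpins and between tissues. miR-140 and miR-455 are best known from cartilage, where they are abundant in chondrocytes and lie in introns of genes controlled by SOX9. In the brain both are minor miRNAs, and miR-455-3p has been studied as a regulator of APP.

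The mature sequences are shown because the arms of miR-455 behaved differently and are told apart only by sequence. They are given 5′ to 3′ from RefSeq on GRCm38.p6, which held 3 of the 4 members, with the seed (bases 2 to 8) in capitals.
miR-455-3p: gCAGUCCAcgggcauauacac
miR-455-5p: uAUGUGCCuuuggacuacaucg
miR-140-3p: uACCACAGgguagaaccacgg
miR-5129-3p: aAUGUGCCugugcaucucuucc
The last is not a member and is shown because it has the seed of miR-455-5p, the only such match to these 3 members among the 754 counted miRNAs with a sequence in the table. No other mature miRNA in the RefSeq table shared the seed of miR-455-3p, and miR-497b, which shares that of miR-140-3p, has no row in the counts. The closest other mature sequence lay 7 single-base edits away from each arm of miR-455 and 8 from miR-140-3p, among 1678 names compared. The methods count variant reads with changed bases or ends together with the exact ones, and they also state that no mismatch to miRBase was allowed, so how far variants enter the counts is not settled here.

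miR-455-3p lies at chr4:63256904-63256924 and miR-455-5p at chr4:63256867-63256888, both on the plus strand of GRCm38. In GENCODE vM21 the hairpin Mir455 (63256851 to 63256932, 82 bases) is in intron 10 of the protein-coding transcript of Col27a1 with 61 exons, on the same strand and 127 bases before the next exon. Col27a1 encodes a fibrillar collagen of cartilage. miR-140-3p lies at chr8:107551288-107551308 on the plus strand. Its hairpin Mir140 (107551244 to 107551313, 70 bases) is in intron 16 of the transcript of Wwp2 with 24 exons, 963 bases before the next exon, and it also overlaps an exon of a Wwp2 transcript with a retained intron. Wwp2 encodes a ubiquitin ligase. The mRNAs of both hosts were not measured here.

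The libraries held between 19048747 and 26085776 miRNA reads, and levels are given as reads per 1000000 miRNA reads (RPM), with 95% Wilson intervals that cover counting error only. The level of 3 reads was between 0.115 RPM in the deepest and 0.157 in the shallowest library, and all 4 members had reads in all 4 libraries. miRNAs of forebrain neurons (miR-124-3p, miR-128-3p, miR-9-5p, miR-9-3p and miR-132-3p) together held between 74935 and 83136 RPM in the tissue labelled cortex, and miRNAs of liver and muscle held between 99.7 and 125 RPM. In cortex tissue, fewer cells of a type and less of a miRNA per cell cannot be told apart.

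miR-455-3p was low in the cortex and differed most between the mice. In group 1 it had 364 reads in WT1, or 14.0 RPM (interval 12.6 to 15.5), and 189 reads in APP4, or 9.92 RPM (8.60 to 11.4). In group 2 it had 759 reads in WT2, or 34.4 RPM (32.0 to 36.9), and 172 reads in APP3, or 8.09 RPM (6.97 to 9.39). Both AD mice lay below both WT mice, and WT2 stood far above the other 3. The intervals of APP3 and APP4 overlapped, and those of the other neighbours in this order did not. The WT mean was 24.2 ± 14.4 RPM (SD, n = 2) and the AD mean 9.00 ± 1.30 RPM (SD, n = 2), so the WT mice varied far more than the AD mice. Its highest level was 4.25 times its lowest. In rank it was miRNA 268 of WT2 and 390 of APP3.

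miR-455-5p, cut from the same hairpin, did not follow its partner. In group 1 it had 139 reads in WT1 (5.33 RPM) and 130 in APP4 (6.82 RPM), and in group 2 it had 89 reads in WT2 (4.03 RPM) and 144 in APP3 (6.77 RPM). Its lowest level was in WT2, the mouse with the highest miR-455-3p, and both AD mice lay above both WT mice. The WT mean was 4.68 ± 0.918 RPM (SD, n = 2) and the AD mean 6.80 ± 0.0378 RPM (SD, n = 2). At these few reads the intervals of neighbours in this order overlapped, the widest being 5.75 to 8.10 RPM in APP4. miR-5129-3p, which shares its seed, had 8.47 RPM in WT1 against 7.93 in APP4, and 6.93 in WT2 against 5.92 in APP3.

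miR-140-3p was the most abundant of the members and hardly differed between mice. In group 1 it had 16509 reads in WT1 (633 RPM) and 12379 in APP4 (650 RPM), and in group 2 it had 11361 reads in WT2 (515 RPM) and 13688 in APP3 (644 RPM). WT2 was lowest, and the intervals of the other 3 libraries overlapped with their neighbours. The WT mean was 574 ± 83.7 RPM (SD, n = 2) and the AD mean 647 ± 4.41 RPM (SD, n = 2). It ranked between 98 and 104 in each library. miR-140-5p had 706 reads in WT1 (27.1 RPM) and 629 in APP4 (33.0 RPM), and 625 reads in WT2 (28.3 RPM) and 664 in APP3 (31.2 RPM). Neighbouring libraries were not separated by their intervals, and both AD mice were again above both WT mice, with means of 27.7 ± 0.879 (SD, n = 2) and 32.1 ± 1.27 RPM (SD, n = 2).

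**Figure D1:**
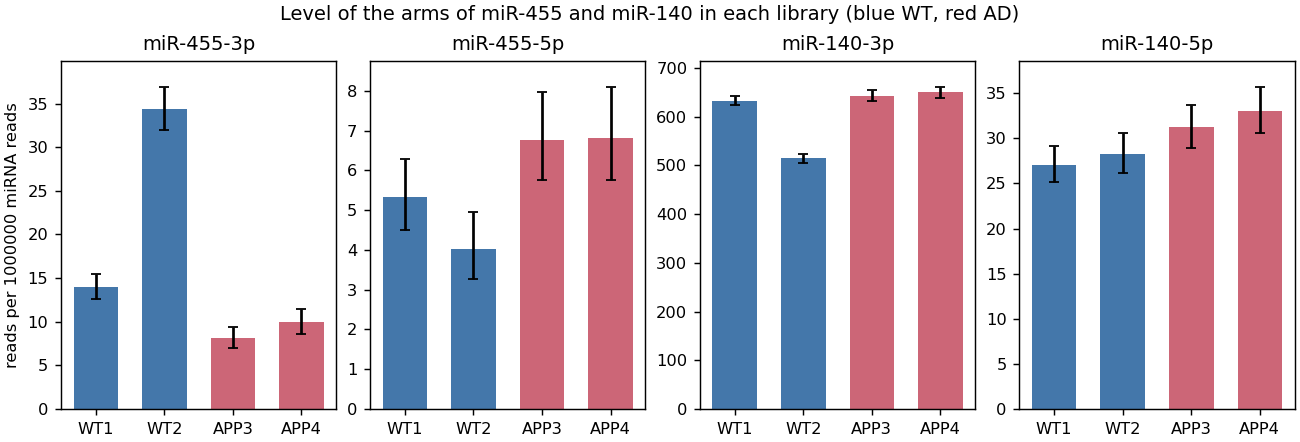
Level of each member in each library in reads per 1000000 miRNA reads, with 1 panel a miRNA, WT mice in blue and AD mice in red, and bars for the 95% Wilson interval. miR-455-3p is highest in WT2 at 34.4 RPM and at 8.09 and 9.92 in the AD mice, while the other 3 arms are lowest in a WT mouse.

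The range over the 4 libraries, as a log2 difference between the highest and lowest level, was 2.08 for miR-455-3p. This is the difference between WT2 and APP3 that chose it, so its size is a description of the choice. The median range of the 379 miRNAs that averaged 10 RPM or more was 0.48. The range of miR-140-3p was 0.34 and that of miR-140-5p 0.29, both below this median. miR-455-5p, which is under 10 RPM, had a range of 0.76. Scaled to miRNA reads, the genotypes did not overlap for any of the 4 members, 1 lower and 3 higher in the AD mice. Of the 623 miRNAs tested in edgeR, 36.0% likewise did not overlap, 8.99% with the AD mice lower and 27.0% with the AD mice higher. With library sizes corrected by TMM, 34.0% of the miRNAs did not overlap, and the excess turned to 19.1% with the AD mice lower against 14.9% higher. miR-140-3p then did overlap, with 592.6 RPM in APP4 below 688 in WT1.

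In group 1, which was not used to choose the members, the comparison of APP4 with WT1 asks whether the change of miR-455-3p was also found in the other sibling pair. A miRNA was called by a rule modelled on the study's methods, with an FDR below 0.05 in Fisher's exact test on the reads of both libraries and a change of 1.5-fold or more. The two-sided form and the Benjamini-Hochberg FDR were chosen here, since the methods name neither. Such a test sets 1 library against another, not 1 genotype against the other. The rule called 104 miRNAs in group 1 and 61 in group 2, in each pair more than the paper lists at its limits. It is thus more liberal than the study's own, and the shares called below are not the study's. The reason for the gap was not tested. miR-455-3p was lower in APP4, with a log2 fold change of -0.49 (SE 0.13, FDR 0.00042 in Fisher's exact test), or 1.40-fold, which is under the limit. With the Bonferroni correction its adjusted p in Fisher's exact test was 0.111, and on reads scaled to 1000000 its FDR was also above 0.05. Of the 4 members, 0 were called, beside 11.6% of the 899 miRNAs tested, and 9.68% were called higher and 1.89% lower. Between mice of the same genotype the rule called 10.1% of 879 miRNAs for WT2 against WT1 and 8.05% of 907 for APP4 against APP3. Such shares are thus not particular to a comparison of the genotypes. Over all of these miRNAs the median log2 fold change was 0.21, so miR-455-3p lay further below the bulk of miRNAs than below 0. With TMM library sizes, which move every log2 fold change of this pair by -0.25, that of miR-455-3p became -0.74 (FDR 2.04e-08 in Fisher's exact test), or 1.67-fold, and it was called lower. With TMM 9.45% of all miRNAs were called, 4.34% higher and 5.12% lower, so the excess of higher calls also depends on the scaling.

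The other 3 members moved little in group 1. The change of miR-455-5p on the log2 scale was 0.36 (SE 0.18, FDR 0.107 in Fisher's exact test), so its difference from WT1 was not shown at this depth. That of miR-140-5p was 0.29 (SE 0.08, FDR 0.00101 in Fisher's exact test) and that of miR-140-3p 0.04 (SE 0.02, FDR 0.0636 in Fisher's exact test), and with TMM they were 0.03 and -0.22, so the sign of miR-140-3p depends on the scaling. None of these reached 1.5-fold under either scaling.

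In group 2, whose values chose the members, APP3 differed from WT2 by a log2 fold change of -2.08 (SE 0.12) for miR-455-3p and 0.75 (SE 0.19) for miR-455-5p. It was 0.32 (SE 0.02) for miR-140-3p and 0.14 (SE 0.08) for miR-140-5p. In this pair 6.81% of 896 miRNAs were called in either direction, and 3.46% of the 896 were called lower. Only miR-181d-3p had a larger decrease among the miRNAs called, with 42 reads in WT2 and 8 in APP3, and miR-342-3p followed miR-455-3p with -1.87. These places are a description of the choice.

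The difference between the WT mice was larger than that of group 1. Between WT2 and WT1 the log2 difference of miR-455-3p was 1.30 (SE 0.09), and between APP4 and APP3 it was 0.29 (SE 0.15). Against the mice that were not their siblings, APP3 was lower than WT1 by a log2 difference of -0.78 (SE 0.13) and APP4 lower than WT2 by -1.79 (SE 0.12), comparisons that share mice with those above. The decrease of miR-455-3p in an AD mouse was thus between -0.49 and -2.08, depending on which WT mouse and AD mouse were compared. For miR-455-5p the WT mice differed by -0.40 (SE 0.20) and the AD mice by 0.01 (SE 0.17). For miR-140-3p the WT mice differed by -0.30 (SE 0.02), about as much as APP3 and WT2.

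**Figure D2:**
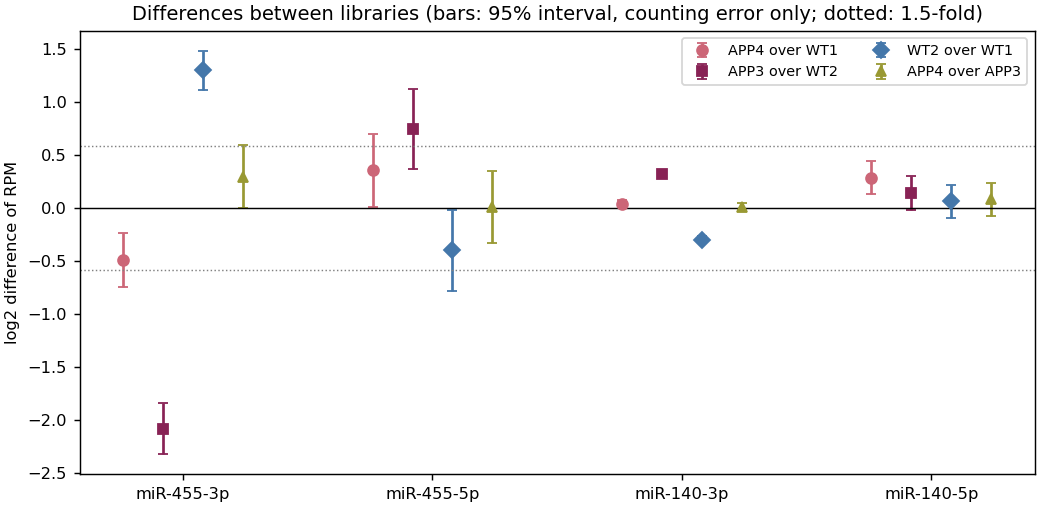
Log2 difference of RPM between pairs of libraries for each member, for both sibling pairs and for both pairs of 1 genotype, with bars for 95% intervals (counting error only) and dotted lines at 1.5-fold. miR-455-3p is below 0 in both sibling pairs (-0.49 and -2.08), and the WT mice differ from each other by 1.30.

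With the mice as replicates, edgeR's quasi-likelihood test, adjusted by Benjamini-Hochberg, passed 0 of 623 miRNAs (0.0%) at an adjusted p under 0.05, and 36 had an unadjusted p under 0.05. DESeq2 also called 0, and edgeR with the sibling pair as a block called 2. The log2 fold change of the AD against the WT mice was -1.54 (SE 0.38) for miR-455-3p, 0.39 (SE 0.25) for miR-455-5p, 0.08 (SE 0.20) for miR-140-5p and 0.03 (SE 0.21) for miR-140-3p. They are given without a test, because WT2 and APP3 chose the members. Without WT2 that of miR-455-3p was -0.79 (SE 0.22) and without WT1 -2.03 (SE 0.25).

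The arms of a hairpin are counted in the same library, so their ratio does not depend on the library total. The 3p arm of miR-455 took 72.4% of the reads of both arms in WT1 (Wilson interval 68.3 to 76.1) and 59.2% in APP4 (53.8 to 64.5). In the other pair it took 89.5% in WT2 (87.3 to 91.4) and 54.4% in APP3 (48.9 to 59.8). For each read of miR-455-5p there were 2.62 reads of miR-455-3p in WT1 and 1.45 in APP4, and 8.53 in WT2 and 1.19 in APP3. The 3p share was lower in both AD mice than in both WT mice. The interval of APP3 includes equal shares of the arms, and that of APP4 lies above them. Summed over both arms, the hairpin gave 19.3 RPM in WT1 against 16.7 in APP4, and 38.4 in WT2 against 14.9 in APP3.

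The 3p arm of miR-140 took between 94.8% of the reads, in WT2, and 95.9%, in WT1, with 95.4% in APP3 and 95.2% in APP4. Its ratio of 3p to 5p reads lay between 18.2 and 23.4. In cortex the 3p arm was thus by far the more abundant arm of miR-140 in all 4 mice, and the genotypes overlapped.

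**Figure D3:**
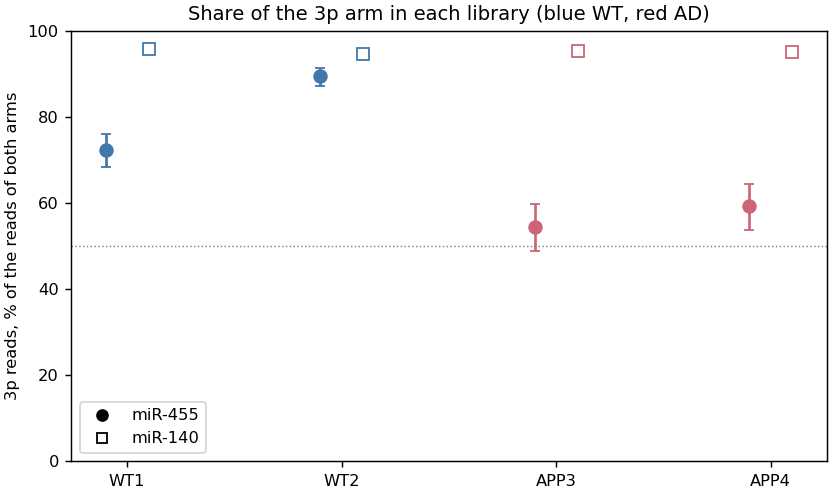
Share of the 3p arm in the reads of both arms, in percent, for the hairpins of miR-455 (filled circles) and miR-140 (open squares), with WT mice in blue, AD mice in red and bars for the 95% Wilson interval. The share of miR-455 is 72.4% and 89.5% in the WT mice and 54.4% and 59.2% in the AD mice, and that of miR-140 stays near 95%.

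In group 1 the ratio of 3p to 5p reads of miR-455 was lower in APP4 than in WT1 by a log2 change of -0.85 (SE 0.22, FDR 0.000700 in Fisher's exact test over 276 hairpins), and it was called. This test was also met by 14.1% of the 276 hairpins with at least 20 reads on their arms in both libraries, 5.8% with a lower and 8.33% with a higher share of the 3p arm. Over all 276 hairpins, 70 changed more than miR-455, 35 of them towards a lower share of the 3p arm. Of the 119 other hairpins with an SE no larger than that of miR-455, 8 changed more, 3 of them towards a lower share. For miR-140 the log2 change was -0.25 (SE 0.08, FDR 0.00902 in Fisher's exact test), under the limit of 1.5-fold.

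In group 2, as a description, the log2 change of the ratio was -2.83 (SE 0.23) for miR-455 and 0.18 (SE 0.08) for miR-140, where 11.1% of 280 hairpins met the rule. The WT mice differed in the ratio of miR-455 by a log2 change of 1.70 (SE 0.22), WT2 over WT1, and the AD mice by 0.28 (SE 0.23), APP4 over APP3. Between these mice of the same genotype 16.5% of 279 hairpins (WT) and 14.5% of 276 (AD) met the rule. Over the 4 libraries, 244 of 272 hairpins had a wider range of the arm ratio than miR-140. The ratio of miR-455 was lower in both AD mice than in both WT mice, as was that of 13.2% of the 272 hairpins.

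**Figure D4:**
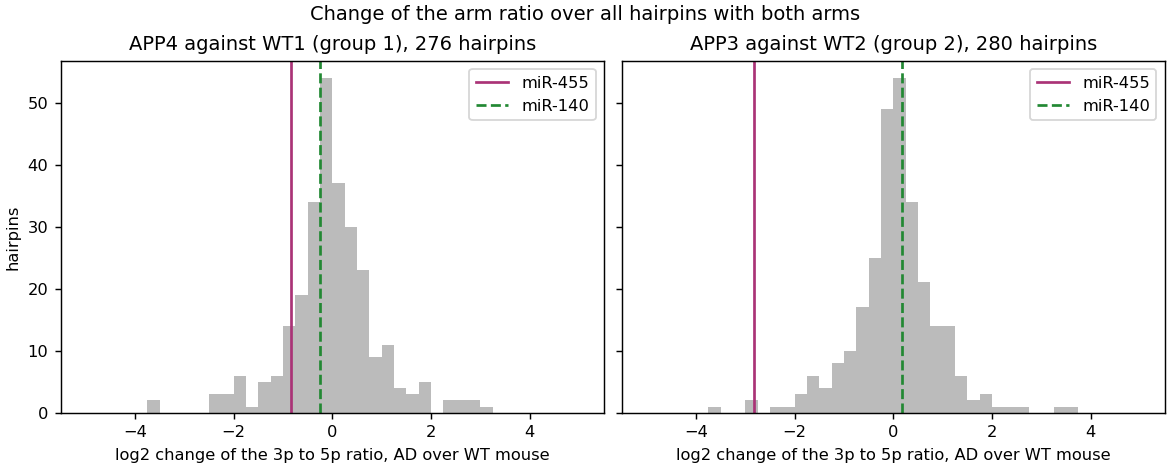
Histograms of the log2 change of the 3p to 5p ratio between the AD and the WT mouse of each sibling pair, over 276 hairpins in group 1 and 280 in group 2, with vertical lines for miR-455 and miR-140. miR-455 is at -0.85 in group 1 and at -2.83 in group 2, and miR-140 is at -0.25 and 0.18.

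The miRNAs whose levels over the 4 libraries were most like those of each member were found by the root mean square distance between log2 RPM profiles centred on their own means, among miRNAs that averaged 10 RPM or more. With 4 libraries this is a description only. The 5 closest to miR-455-3p were miR-342-3p, miR-100-5p, miR-99b-5p, miR-221-5p and miR-501-3p, at distances between 0.32 and 0.50, where the median distance of 378 miRNAs was 0.85. All 5 were highest in WT2, which the choice by distance makes likely, since the centred profile of miR-455-3p peaks there at 1.29. miR-342-3p had 678 RPM in WT2 and 186 in APP3, and 182.3 in WT1 and 152 in APP4, so WT2 again stood above the other 3, but WT1 lay below APP3. For miR-100-5p and miR-501-3p the lowest library was APP4 and for miR-455-3p APP3.

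miR-455-5p was at a distance of 1.10 from miR-455-3p, further than the median miRNA, and at 0.19 from miR-140-3p. The median distance of the miRNAs compared was 0.21 from miR-140-3p and 0.32 from miR-455-5p, so 0.19 is close to the first. The 5 miRNAs closest to miR-455-5p were miR-1983, miR-671-3p, miR-664-5p, miR-1843b-3p and miR-98-3p. All 5 were lowest in WT2, as miR-455-5p was, which the choice by distance again makes likely. miR-1983, the nearest at 0.06, had 71.6, 56.4, 99.7 and 90.0 RPM in WT1, WT2, APP3 and APP4. Closest to miR-140-3p were miR-3061-3p, miR-488-3p, miR-350-5p, miR-3086-5p and miR-378c, at 0.02 to 0.05. Closest to miR-140-5p were miR-300-3p, miR-92b-3p, miR-199a-3p, miR-17-5p and miR-485-3p, at 0.01 to 0.04. The arms of miR-140 were 0.13 apart, where the median distance was 0.21 from miR-140-3p and 0.17 from miR-140-5p.

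**Figure D5:**
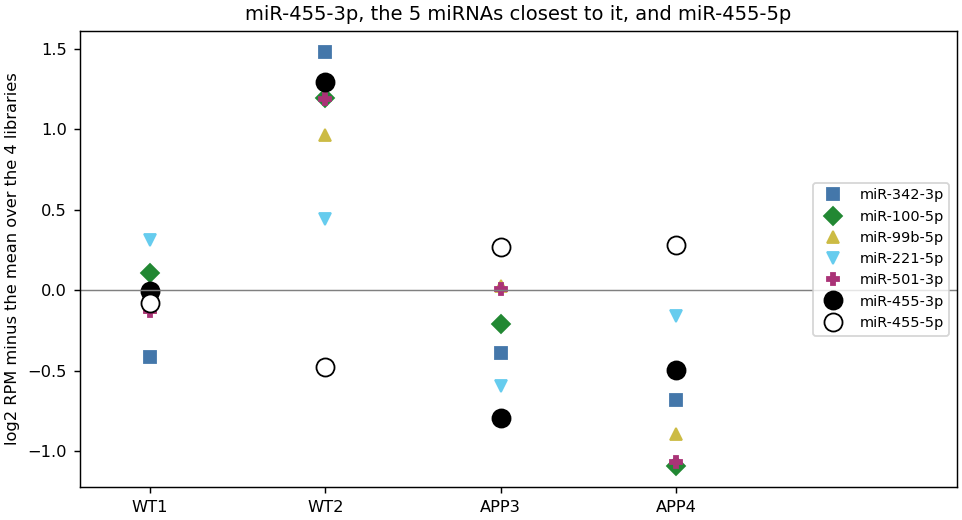
Log2 RPM minus its mean over the 4 libraries for miR-455-3p (filled circles), the 5 miRNAs closest to it and miR-455-5p (open circles). miR-455-3p is at 1.29 in WT2 and below 0 in both AD mice, and miR-455-5p is at -0.48 in WT2 and above 0 in both AD mice.

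Other miRNAs studied in cartilage were set beside the members, and 6 of a list of 8 had a row. Of these 6, 0 were called in either sibling pair, beside 11.6% of all miRNAs in group 1 and 6.81% in group 2. Their median log2 fold change was 0.13 in group 1, where that of all miRNAs was 0.21, and -0.03 in group 2, where it was 0.05. The most abundant was miR-27b-3p, with between 25560 and 27212 RPM, followed by miR-146a-5p, with between 1023 and 1209.

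A piece of cortex can hold meninges, vessels, choroid plexus and blood, so miRNAs of these were counted in the same pairs. Of all miRNAs tested, 9.68% were called higher and 1.89% lower in group 1, and 3.35% higher and 3.46% lower in group 2. With TMM, 4.34% were called higher and 5.12% lower in group 1, and 3.24% higher and 3.68% lower in group 2. Of 12 miRNAs of connective tissue, mural cells and fibroblasts, 1 was called higher in group 1 (miR-214-3p, with 24 reads in WT1 and 34 in APP4) and 0 in group 2. With TMM none of the 12 was called higher in group 1, and 1 was called lower, miR-143-3p, with a log2 fold change of -0.78. Their sum was 26221 RPM in WT1 and 18866 in APP4, and 26247 in WT2 and 22741 in APP3. Nearly all of it was miR-143-3p, so the lower sum in both AD mice describes that miRNA. In RPM, miR-143-5p and miR-145a-5p were also lower in both AD mice, while miR-199a-3p, miR-199a-5p, miR-199b-3p and miR-214-3p were higher in both. The median log2 fold change of the 12 was -0.045 in group 1, beside 0.21 for all miRNAs, and 0.10 in group 2, beside 0.05. Of the 12, 4 were highest in WT2, as miR-455-3p was, 2 in WT1, 3 in APP3 and 3 in APP4. The sum of the 2 arms of miR-126, of endothelium, lay between 7322 and 9135 RPM, with 0 of 2 called in either pair. Of 8 miRNAs of choroid plexus and ependyma, 2 were called higher in both pairs, miR-211-5p and miR-449c-5p (0 reads in both WT mice, 6 in APP3 and 7 in APP4). With TMM miR-211-5p was no longer called in group 1. The sum of the 8 was highest in WT2 with 4714 RPM against 3362 to 3849 in the others. Most of it was miR-204-5p, with 4370 RPM in WT2. Of the 8, 1 was highest in WT2, 0 in WT1, 4 in APP3 and 3 in APP4. Of 8 miRNAs of blood, 5 were called higher in group 1 and 1 in group 2 (miR-142-3p, in both). With TMM 2 were called higher in group 1, miR-144-3p and miR-144-5p, and 1 lower, miR-486-5p, while in group 2 miR-142-3p was still called. The sum of these 8 was also highest in WT2, with 4740 RPM against 3342 to 4174. Most of it was miR-486-5p, with 4417 RPM in WT2. Of the 8, 3 were highest in WT2, 0 in WT1, 1 in APP3 and 4 in APP4. Among 5 miRNAs of the Hox clusters, which mark caudal tissue, 1 was called in group 1 (miR-10b-5p, lower in APP4) and 0 in group 2, and the sum was highest in WT1, with 878 RPM against 564 to 619. Of the 4 miRNAs of liver and muscle, miR-122-5p was called lower in both pairs, with 116 reads in WT1 and 31 in APP4, and 48 in WT2 and 20 in APP3. Among the 5 miRNAs of forebrain neurons 0 were called in either pair. The part of these tissues in the levels of miR-455-3p was not tested.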

How the data were processed

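Cortex small RNA of 4 mice, 1 library each, was analysed. The authors trimmed adapters, removed low-quality reads, kept reads of small RNA length, matched them to miRBase and counted reads per mature miRNA. How far variant reads enter these counts is not settled, as stated above. The authors deposited raw counts, together with RPM relative to clean reads, which the table calls TPM. The labels name mm9 and CASAVA 1.8 and the methods GRCm38, and no coordinate was taken from the deposited table. The labels name Trizol for RNA extraction, and the methods a column kit.

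Levels were counts divided by each library's total of miRNA reads, and the deposited RPM were used only to derive clean reads. Fisher's exact tests, two-sided and run in scipy 1.17.1, and their FDR were computed over all miRNAs with a read in either library, and log2 fold changes had 0.5 read added. The arm test compared 3p and 5p reads of all hairpins with at least 20 reads in both libraries. The genotypes were compared with edgeR 4.0.16 (filterByExpr, TMM, quasi-likelihood) in R 4.3.3, and with DESeq2 1.42.0 as the other tool. The sibling pairs come from the methods. The deviations of siblings from their genotype means correlated with r = 0.235 across 252 miRNAs, which are not independent. With 2 mice per genotype these deviations mirror each other, so both pairs must give the same r, and it cannot show that siblings are alike. The block is an alternative. The tests by Fisher's rule, by arm and by edgeR were checked on simulated data. Every pair of libraries differed beyond sampling noise (chi-square divided by its degrees of freedom 574 or more). The SE of an edgeR fold change was derived from its quasi-likelihood test and includes the spread between mice. Any other SE covers counting error only.

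The members and lists were chosen with earlier results of these data known. The miRNAs named are the members, the 5 closest to each, those with the seed of a member, and from each list the 2 with the most reads and those called in the same direction in both pairs. miR-214-3p, miR-143-5p, miR-145a-5p, miR-199a-5p, miR-199b-3p, miR-181d-3p, miR-144-3p, miR-144-5p and miR-342-5p were named after their values were seen. Of the rows of the table, 754 of 942 had a mature sequence in RefSeq, and hairpin positions are those of GENCODE vM21. Other RNA classes, target predictions and the qRT-PCR were not analysed here.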

Additional observations from a re-analysis of the deposited data

Results flagged for a closer look

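The arm ratio of miR-140 moved in opposite directions in the sibling pairs. The log2 change of its ratio of 3p to 5p reads was -0.25 between APP4 and WT1 and 0.18 between APP3 and WT2. Both are under 1.5-fold, and whether the pairs differ was not tested, since a pair holds a single mouse per genotype.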

How the results depend on the processing

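Of 148 values recomputed under alternatives, 120 kept their direction and their side of the limit or stayed within their error, 4 passed the limit only in the alternative, 19 moved and 5 changed sign. The 4 were all values of miR-455-3p. Those among them that come from edgeR are no support, since the fits hold WT2 or APP3, which chose the members. In group 1, TMM library sizes gave a log2 fold change of -0.74 to miR-455-3p, which was then called, and of -0.22 to miR-140-3p, which changed sign. They widened the difference between the WT mice in miR-140-3p to 0.40. With both arms summed, the log2 fold change of the hairpin of miR-455 was -0.20 in group 1 and -1.37 in group 2, each of the opposite sign to miR-455-5p, since miR-455-3p has more reads, and that of miR-140 in group 2 was 0.31. In group 1, 104 miRNAs were called, and 32 on reads scaled to 1000000, 53 with a minimum of 10 RPM, 65 with the Bonferroni correction and 50 with a limit of 2-fold. The arm test called 39 hairpins there, and 19 with Bonferroni, and miR-455 was called under both. Per clean read, the mean of miR-455-3p was 7.68 in the AD mice, that of miR-455-5p 5.81, that of miR-140-3p 553 and that of miR-140-5p 27.4, with 23.8 in the WT mice for the last. With a minimum of 50 RPM, 2 of the 5 miRNAs closest to miR-140-3p and 2 of those closest to miR-140-5p were kept. edgeR called 0 miRNAs, 2 with the sibling pair as a replicate block, and with each mouse left out in turn between 0 (without WT2) and 21 (without APP3). For the members the outcome with the block is not read as a test, since WT2 and APP3 chose them. With a mouse left out, the log2 fold change of miR-455-3p lay between -2.03 and -0.79, a description, since WT2 and APP3 chose it. That of miR-140-3p lay between -0.12 and 0.24, negative without WT2 (-0.12) or without APP3 (-0.03). With a mouse left out, the lone mouse of its genotype is assumed to vary like the others. The cause of these changes was not tested. Depth limits miR-455-5p most, which had between 89 and 144 reads a library.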

Other observations

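The nearest miRNA to miR-455-3p, miR-342-3p, was used to ask whether high miR-455-3p in WT2 went with a high other arm, a comparison chosen after the values were seen. miR-342-5p had 16.1 RPM in WT2, 5.13 in APP3, 5.88 in APP4 and 3.72 in WT1, so both arms of miR-342 were highest in WT2. From WT2 to APP3 miR-342-3p changed by -1.87 and miR-342-5p by -1.65 on the log2 scale, a log2 change of the arm ratio of -0.22 (SE 0.16), where that of miR-455 was -2.83 (SE 0.23). Between APP4 and WT1 the arms of miR-342 parted, with -0.26 for the 3p and 0.66 for the 5p arm, a log2 change of the ratio of -0.92 (SE 0.20), close to the -0.85 (SE 0.22) of miR-455.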
